A study of Homo sapiens with 12 samples.

Results

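The transcription factor NRF2, its inhibitor KEAP1 and 8 genes that NRF2 is known to switch on were followed in 2 human melanoma cell lines. The 10 genes were taken from the count table by exact gene symbol: NFE2L2 (the gene of NRF2), KEAP1, NQO1, HMOX1, GCLM, GCLC, SRXN1, TXNRD1, TXN and OSGIN1. Each had a single row among the 58307 rows that name a gene, and all 10 passed the filter on low counts in every fit, so no member was left out. A375 and SK-MEL-28 are established lines, and each was incubated with etoposide, a poison of topoisomerase II, or with etoposide + rapamycin, an inhibitor of the kinase mTOR that induces autophagy. Messenger RNA was sequenced from 3 libraries per group in 4 groups, 12 in all, to ask how the inducer of autophagy alters etoposide-treated cells. Every group received etoposide. Cells without etoposide, or with rapamycin alone, were not analysed here, and the dose and duration used for these libraries are not given in the sources used here. Each line is a single cell line, so a difference between them is a difference between 2 lines and not between types of melanoma.

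NRF2 is held in the cytoplasm by KEAP1, an adaptor that hands it to the CUL3 ubiquitin ligase for destruction. Oxidants and electrophiles modify KEAP1, and the autophagy receptor p62 (SQSTM1) can compete for it. NRF2 then accumulates, pairs with a small MAF protein and binds antioxidant response elements near genes for quinone reduction, heme breakdown, glutathione synthesis and the thioredoxin system. Because NRF2 is controlled mainly through its protein, the messenger RNA of NFE2L2 is not a reading of its activity. Protein was not measured in these files.

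The core of the antioxidant response element, written TGACNNNGC, was searched on both strands from 1000 bases before to 50 bases after the RefSeq start of each gene (GRCh38.p14). Of the 10 genes, 9 had an entry in the promoter table used, and HMOX1 had none. The core lay in 6 of the 9, those of NQO1, GCLM, GCLC, TXNRD1, TXN and OSGIN1, and these letters were not in the windows of NFE2L2, KEAP1 and SRXN1. It also lay in 33.7% of all 27305 windows of that length, so a match alone does not show that NRF2 binds there. The sequences are shown because they are the DNA letters that the pathway is named for. The core is in capitals, and each is written along the strand of its gene.
NQO1: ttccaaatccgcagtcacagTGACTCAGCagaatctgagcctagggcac
GCLM: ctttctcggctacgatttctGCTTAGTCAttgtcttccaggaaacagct
GCLC: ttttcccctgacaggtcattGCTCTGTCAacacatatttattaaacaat
TXNRD1: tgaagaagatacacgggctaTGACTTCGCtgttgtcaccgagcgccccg
TXN: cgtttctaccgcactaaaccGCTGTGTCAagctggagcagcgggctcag
OSGIN1: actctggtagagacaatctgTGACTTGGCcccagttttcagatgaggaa

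The NQO1 stretch was at chr16:69726987-69727035 on the minus strand, with the core beginning 455 bases before the start. It contained TGACTCA, the letters that AP-1 also binds. Either TGACTCAGC or TGAGTCAGC, the second of which does not match TGACNNNGC, lay in 2.55% of all windows. The GCLM core began 34 bases before its start, at chr1:93909436-93909484 on the minus strand. The GCLC stretch was at chr6:53545943-53545991 on the minus strand, and the TXN stretch at chr9:110257060-110257108 on the minus strand. Those of TXNRD1, at chr12:104215660-104215708, and of OSGIN1, at chr16:83952663-83952711, were on the plus strand. TXNRD1 held 2 cores, and the other, which is not shown, lay at its start, beginning 8 bases before it. In GCLM, GCLC and TXN the core read on the opposite strand, and its letters appear above as the reverse complement.

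Levels are given as CPM, in which counts were divided by library size after correction with TMM factors over the 12 libraries. Library totals ranged from 28189501 to 32499337 counts, and the least counted member value was 675 counts for HMOX1. In the melanocyte markers, SOX10, S100B, S100A1 and MITF were detected in every group, while TYR had at most 6 counts in a library. The pigment genes PMEL, MLANA and DCT had group means of 0.216 to 2.50 CPM. Of the 4 leukocyte markers, 1 (LYZ) exceeded 1 CPM, and PTPRC stayed below it, so the sum over that list was nearly all LYZ. The sum stood at 16.7 to 17.4 CPM in A375 with etoposide and 6.01 to 7.49 CPM with etoposide + rapamycin, and at 31.0 to 33.9 and 14.8 to 19.6 CPM in SK-MEL-28. The part of these markers in the results was not tested. In bulk RNA, fewer expressing cells and less RNA per cell cannot be told apart. The sources state 3 biological replicates per condition.

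**Figure D1:**
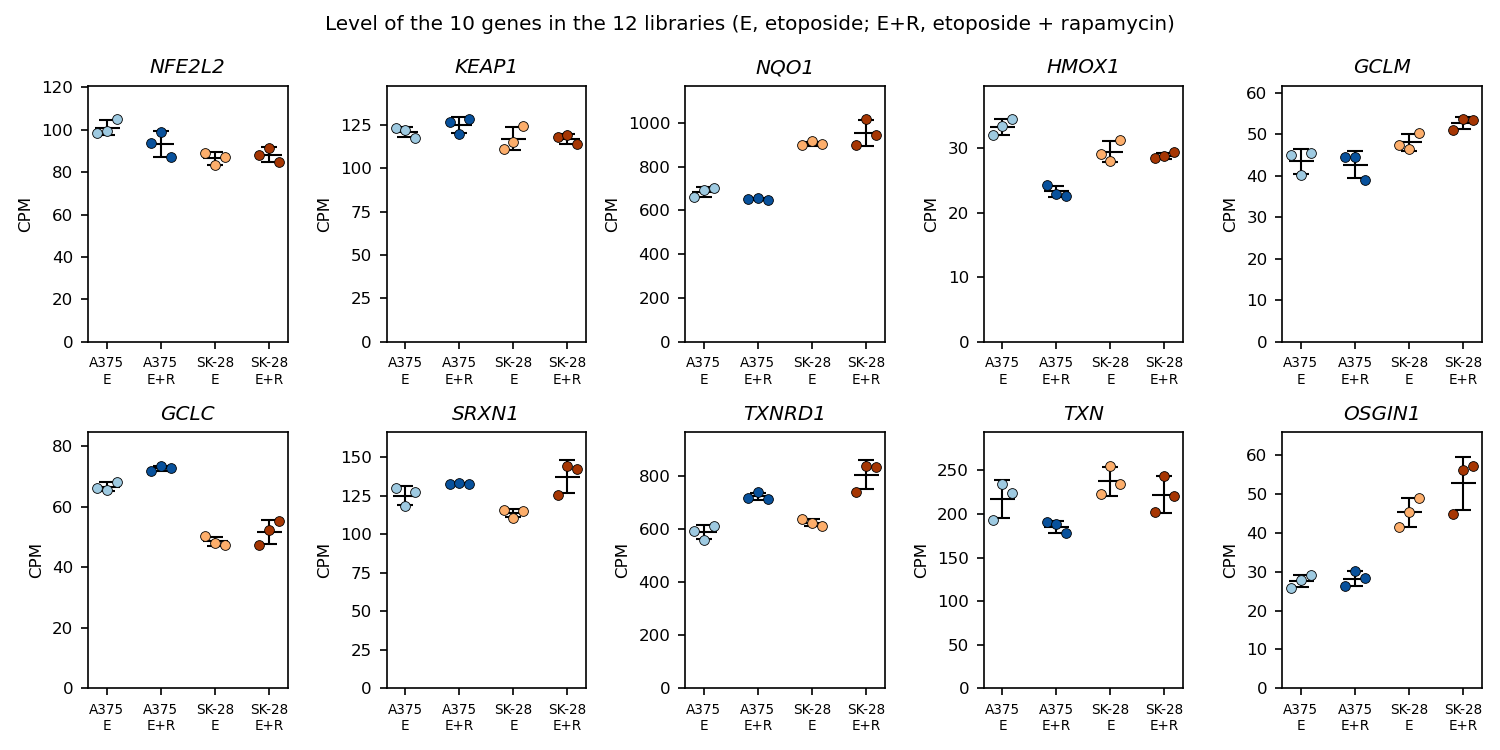
Level of each of the 10 genes in each of the 12 libraries, in CPM, with a panel and a vertical axis of its own for each gene and the 4 groups along the horizontal axis (SK-28 stands for SK-MEL-28, E for etoposide and E + R for etoposide + rapamycin). HMOX1 drops to 22.68 to 24.31 CPM only in A375 with rapamycin, TXNRD1 is higher with rapamycin in both lines, and OSGIN1 and NQO1 are higher in SK-MEL-28 in both treatments.

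Compared per length, as CPM per kilobase of the canonical transcript, the thioredoxin TXN and the quinone reductase NQO1 were the most abundant of the 10. In A375 with etoposide TXN stood at 295 ± 28.8 and NQO1 at 272 ± 8.62 CPM per kilobase (SD, n = 3), and their libraries overlapped. In SK-MEL-28 with etoposide the order was turned, with NQO1 at 359 ± 3.70 and TXN at 322 ± 22.4 CPM per kilobase and no overlap. The thioredoxin reductase TXNRD1 came next in every group, at 152 ± 7.01 to 208 ± 14.3 CPM per kilobase. A middle tier of SRXN1, KEAP1 and NFE2L2 lay between 35.3 and 54.4 CPM per kilobase, and HMOX1, GCLC and OSGIN1 lay between 12.8 and 27.5 as group means. SRXN1 and KEAP1 overlapped in both lines under etoposide, and HMOX1 and OSGIN1 overlapped in A375 with etoposide + rapamycin. NFE2L2 lay below both SRXN1 and KEAP1 without overlap in every group. GCLM was the lowest, at 8.75 to 10.8 CPM per kilobase. NQO1 and TXNRD1 together made up 62.8% to 70.1% of the CPM of the 10 genes, and the 10 genes 0.197% to 0.264% of a library.

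With rapamycin added to etoposide, the 10 genes passed the test about as often as all genes, in both directions in A375 and only upward in SK-MEL-28. In A375 the messenger of HMOX1, the enzyme that breaks down heme, fell by 30.2%, TXN fell by 14.8% and TXNRD1 rose by 22.7%. In SK-MEL-28 TXNRD1 rose by 28.7% and SRXN1, the sulfiredoxin that restores oxidized peroxiredoxins, rose by 20.6%. In A375, 3 of the 10 genes passed an adjusted p of 0.05 (1 higher, 2 lower), against 28.1% of the 18844 genes tested (14.3% higher and 13.8% lower). In SK-MEL-28, 2 of the 10 passed, both higher, against 19.0% of the 18897 genes tested (8.83% higher and 10.1% lower). The members' counts were close to these background shares. No member was called with a fold over 1.5, which 5.89% of genes were in A375 cells and 4.99% in SK-MEL-28 cells. The median size of the members' log2 change was 0.10 in A375 cells and 0.09 in SK-MEL-28 cells. Over all genes tested it was 0.22 and 0.18. The members were counted more deeply, with a median mean count of 3179 against 389 and 384. The part of this depth in the gap was not tested. These tests used the edgeR quasi-likelihood test on each line alone, with Benjamini-Hochberg adjustment over all genes. Scaled by library totals in place of TMM, 5 members were called in A375 (1 higher, 4 lower, adding NFE2L2 and NQO1), and the share of higher genes among all calls was 39.7% in place of 50.8%, and 36.1% in place of 46.6% in SK-MEL-28. The libraries of the 2 treatments did not overlap for 6 members in A375, against 42.5% of all genes, and for 3 in SK-MEL-28, against 35.9%.

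**Figure D2:**
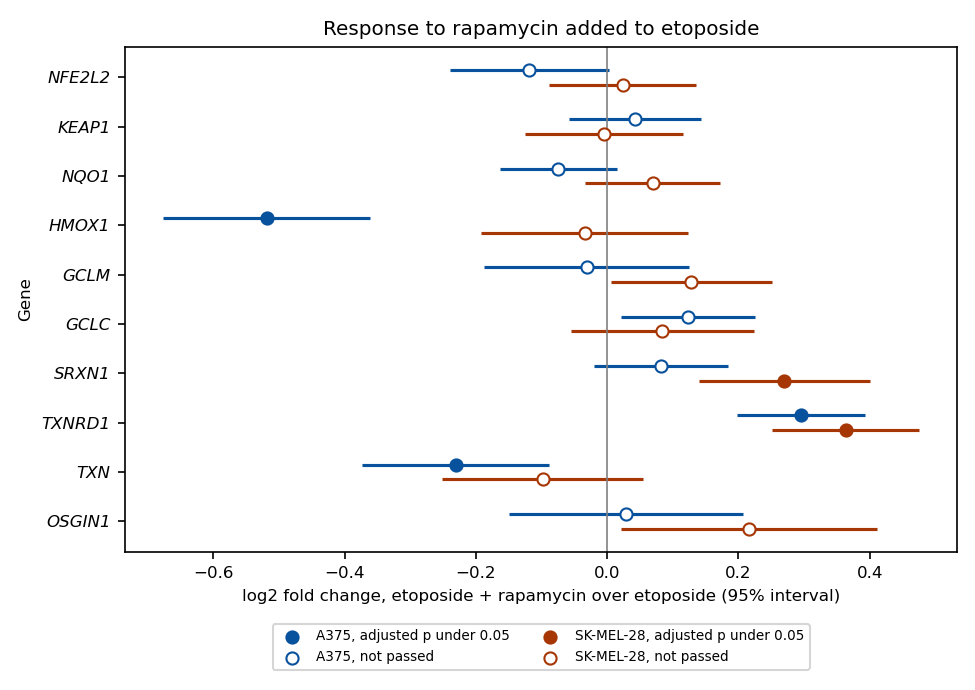
Log2 fold change with rapamycin added to etoposide for each of the 10 genes, as points with 95% intervals from the edgeR fits, in A375 cells and in SK-MEL-28 cells, with a line at 0. TXNRD1 lies to the right of 0 in both lines (0.30 and 0.36), HMOX1 lies to the left in A375 cells (-0.52) and near 0 in SK-MEL-28 cells (-0.03), and the other genes lie within 0.27 of 0.

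The regulators themselves did not pass the test with rapamycin in either line. NFE2L2 had 98.39, 99.44 and 104.8 CPM in A375 with etoposide and 93.52, 99.06 and 86.93 CPM with etoposide + rapamycin. The groups overlapped, and the log2 fold change was -0.12 with a 95% interval of -0.24 to 0.00 (adjusted p = 0.139, edgeR). In SK-MEL-28 NFE2L2 had 89.05, 83.11 and 87.22 CPM with etoposide and 88.17, 91.57 and 84.59 CPM with etoposide + rapamycin, a log2 change of 0.02 (interval -0.09 to 0.14, adjusted p = 0.806, edgeR). KEAP1, the brake on NRF2, ranged from 111.3 to 128.1 CPM over the 12 libraries. Its log2 change was 0.04 in A375 cells (interval -0.06 to 0.14) and -0.0045 in SK-MEL-28 cells (interval -0.13 to 0.12).

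HMOX1 (chromosome 22, 35380361 to 35394214, plus strand, GRCh38) encodes heme oxygenase-1, which NRF2 drives and the repressor BACH1 holds down. It had 32.02, 33.45 and 34.48 CPM in A375 with etoposide and 24.31, 22.95 and 22.68 CPM with etoposide + rapamycin. Every library with rapamycin lay below every library without it, and the log2 fold change was -0.52 ± 0.0727 (SE, adjusted p = 0.000243, edgeR). In SK-MEL-28 it had 29.12, 28.01 and 31.28 CPM with etoposide and 28.47, 28.74 and 29.37 CPM with etoposide + rapamycin. These groups overlapped, with a log2 change of -0.03 (interval -0.19 to 0.12, adjusted p = 0.801, edgeR). The difference between the 2 responses was itself tested in a fit of all 12 libraries. It was 0.49 ± 0.0924 on the log2 scale (SE), with an interval of 0.30 to 0.69 and an adjusted p of 0.00487 (edgeR). HMOX1 was the only one of the 10 called in that test, against 5.62% of the 20101 genes tested (2.66% with a positive and 2.97% with a negative difference), and it held in all 20 alternative settings tried, with adjusted p from 0.000252 to 0.0258. It was not past a fold of 1.5, as 1.62% of genes were. The other 9 were not called. The interval of the difference was widest for OSGIN1, from -0.08 to 0.47, and ran from -0.19 to 0.11 for KEAP1. Those of NQO1 (0.02 to 0.28) and SRXN1 (0.03 to 0.36) lay above 0, but did not pass the adjustment (adjusted p = 0.169 and 0.157, edgeR). SRXN1 was also called for a difference, at 0.26 (adjusted p = 0.0412, edgeR), when SK-MEL-28 with etoposide + rapamycin replicate 1 was left out.

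NQO1, the NAD(P)H quinone dehydrogenase often used as a readout of NRF2, lies on chromosome 16 (69706996 to 69726668, minus strand, GRCh38). It had 660.9, 691.4 and 702.9 CPM in A375 with etoposide and 653.0, 654.5 and 649.2 CPM with etoposide + rapamycin. The groups did not overlap, but the log2 change of -0.07 ± 0.0411 (SE) did not pass the test (adjusted p = 0.205, edgeR). In SK-MEL-28 it had 896.6, 915.0 and 903.2 CPM with etoposide and 897.4, 1016 and 942.8 CPM with etoposide + rapamycin, a log2 change of 0.07 with an interval of -0.03 to 0.17. NQO1 was thus abundant in both lines, and no change with rapamycin was called for it.

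GCLC and GCLM encode the catalytic and modifier subunits of glutamate-cysteine ligase, which carries out the first step of glutathione synthesis. GCLC had 66.27, 65.61 and 68.27 CPM in A375 with etoposide and 71.98, 73.59 and 72.92 CPM with etoposide + rapamycin. These groups did not overlap, and the log2 change of 0.12 ± 0.0469 (SE) did not pass the adjustment (adjusted p = 0.0696, edgeR). In SK-MEL-28 the GCLC libraries overlapped, at 47.43 to 50.38 CPM and 47.30 to 55.19 CPM. GCLM had 40.12 to 45.57 CPM in A375 with etoposide and 39.08 to 44.66 CPM with etoposide + rapamycin. In SK-MEL-28 GCLM had 46.39 to 50.40 CPM and then 51.07 to 53.62 CPM, without overlap, and the log2 change of 0.13 ± 0.0566 (SE) did not pass the test (adjusted p = 0.139, edgeR). Neither subunit was called with rapamycin in either line.

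The change shared by both lines was that of TXNRD1. TXNRD1, the cytosolic thioredoxin reductase that uses NADPH to recharge thioredoxin, had 592.0, 557.5 and 610.9 CPM in A375 with etoposide and 716.0, 738.1 and 711.0 CPM with etoposide + rapamycin. In SK-MEL-28 it had 637.2, 620.6 and 610.7 CPM and then 739.5, 836.3 and 833.9 CPM. In both lines every library with rapamycin was above every library without it. The log2 fold change was 0.30 ± 0.0450 in A375 cells (SE, adjusted p = 0.000439, edgeR) and 0.36 ± 0.0517 in SK-MEL-28 cells (adjusted p = 0.000339, edgeR). TXNRD1 was the only member called in both lines, and the difference between its responses was 0.08 with an interval of -0.07 to 0.22.

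TXN, the thioredoxin that TXNRD1 reduces, had 193.4, 234.2 and 224.1 CPM in A375 with etoposide and 190.9, 188.1 and 177.8 CPM with etoposide + rapamycin. The lowest library without rapamycin lay just above the highest with it, and the log2 change was -0.23 ± 0.0654 (SE, adjusted p = 0.0192, edgeR). This call was lost in 4 of 15 alternative settings. The log2 change was -0.17 without A375 with etoposide replicate 2, -0.21 without replicate 3 of that group and -0.20 without A375 with etoposide + rapamycin replicate 3 (adjusted p = 0.0850, 0.0704 and 0.0857, edgeR). In SK-MEL-28 TXN had 222.6, 255.3 and 234.3 CPM and then 202.3, 244.1 and 220.5 CPM, with overlap and a log2 change of -0.10 (interval -0.25 to 0.05). Set against each other in the same library, the log2 ratio of TXNRD1 to TXN was 1.25 to 1.61 in A375 with etoposide and 1.91 to 2.00 with etoposide + rapamycin. In SK-MEL-28 it was 1.28 to 1.52 and 1.78 to 1.92. The pairs for these ratios were chosen after the counts had been seen, and the ratios were not tested.

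**Figure D3:**
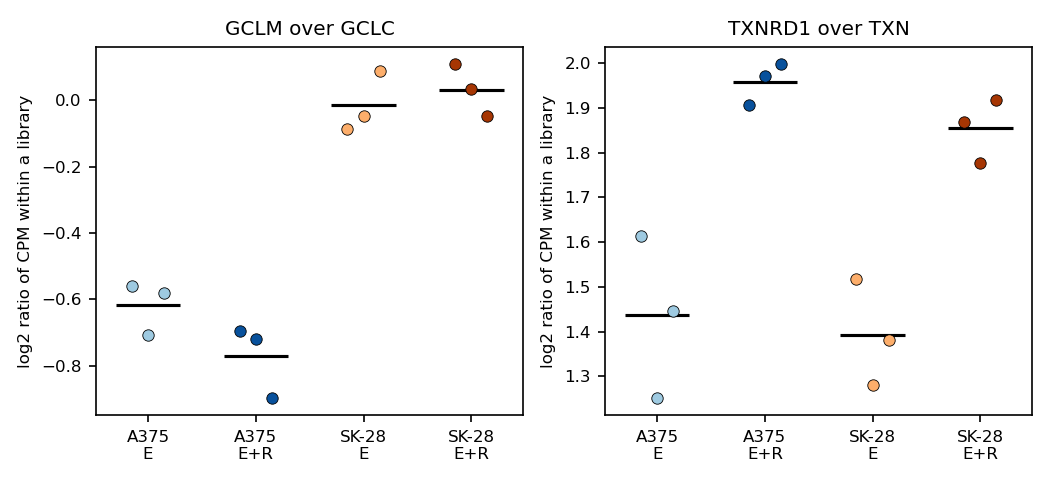
Log2 ratio of the CPM of 2 members within each library, a panel for each of 2 pairs, with 3 libraries as points and a bar at the mean in each of the 4 groups (SK-28 stands for SK-MEL-28). TXNRD1 over TXN is higher with rapamycin in both lines (means of 1.44 and 1.96 in A375 cells and of 1.39 and 1.85 in SK-MEL-28 cells), while GCLM over GCLC separates the lines (means of -0.62 in A375 cells and -0.01 in SK-MEL-28 cells with etoposide).

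SRXN1 had 115.7, 110.6 and 114.9 CPM in SK-MEL-28 with etoposide and 125.4, 144.4 and 142.5 CPM with etoposide + rapamycin. The groups did not overlap, and the log2 change was 0.27 ± 0.0601 (SE, adjusted p = 0.0073, edgeR). In A375 it had 129.8, 118.3 and 127.4 CPM and then 132.4, 133.1 and 132.9 CPM, also without overlap, and a log2 change of 0.08 ± 0.0473 (SE) that did not pass the test (adjusted p = 0.225, edgeR). OSGIN1, an oxidative stress induced growth inhibitor, had 41.52, 45.33 and 49.13 CPM in SK-MEL-28 with etoposide and 44.94, 56.23 and 57.30 CPM with etoposide + rapamycin, which overlapped. Its log2 change of 0.22 ± 0.0903 (SE) did not pass (adjusted p = 0.118, edgeR), and was 0.33 (adjusted p = 0.0133, edgeR) without SK-MEL-28 with etoposide + rapamycin replicate 1. In A375 OSGIN1 ranged from 25.91 to 30.21 CPM over the 6 libraries, with a log2 change of 0.03 (interval -0.15 to 0.21).

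Under etoposide, 5 of the 10 genes were called between SK-MEL-28 and A375 (2 higher and 3 lower in SK-MEL-28), against 31.8% of genes tested (15.1% higher and 16.7% lower). Under etoposide + rapamycin, 7 were called (6 higher and 1 lower), against 37.8% (18.9% in each direction). These 2 comparisons set different libraries against each other, but both come from the fit of all 12 libraries and share its estimate of the spread. Each also shares its libraries with the test of the difference between responses. The groups did not overlap for 7 members under etoposide, against 43.4% of genes, and for 8 under etoposide + rapamycin, against 49.3%. In each comparison 1 member was called with a fold over 1.5, OSGIN1, against 12.5% and 14.4% of genes. The members were counted more deeply, with a median mean count of 3179 against 312 over all genes tested in both comparisons. The part of this depth in the shares called was not tested.

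OSGIN1 was higher in SK-MEL-28 by 63.3% under etoposide (log2 0.71 ± 0.0920, SE, adjusted p = 1.31e-05, edgeR) and by 87.1% under etoposide + rapamycin (log2 0.90, adjusted p = 6.76e-07, edgeR). Its row shares a merged locus with MLYCD, which had 542 to 700 counts per library and a log2 difference of -0.19 between the lines under etoposide (adjusted p = 0.0909, edgeR). How reads were divided between the names of a locus, and whether strand was used, is not stated. NQO1 was higher in SK-MEL-28 by 31.5% and 46.1%, with log2 differences of 0.39 and 0.55 (adjusted p = 2.11e-06 and 3.42e-08, edgeR). GCLC was lower in SK-MEL-28, at 0.725 and 0.709 times its A375 level, with log2 differences of -0.46 and -0.50 (adjusted p = 6.55e-06 and 2.73e-06, edgeR).

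The messenger RNAs of the 2 subunits of glutamate-cysteine ligase stood in different proportion in the 2 lines. GCLM had a log2 difference of 0.14 under etoposide, which did not pass (adjusted p = 0.127, edgeR), and was higher in SK-MEL-28 by 23.5% under etoposide + rapamycin (adjusted p = 0.00136, edgeR). In each library, GCLM stood at a log2 ratio of -0.90 to -0.56 to GCLC in A375 cells and of -0.09 to 0.11 in SK-MEL-28 cells, so the 2 lines did not overlap. This pair too was chosen after the counts had been seen, and its ratio was not tested. NFE2L2 was lower in SK-MEL-28 under etoposide, at 0.853 times its A375 level (adjusted p = 0.00413, edgeR), and its log2 difference under etoposide + rapamycin was -0.08 (interval -0.20 to 0.04). KEAP1 was called in neither comparison. HMOX1 was lower in SK-MEL-28 under etoposide, at 0.881 times its A375 level (adjusted p = 0.0397, edgeR), a call that held in 10 of 21 alternative settings and was lost, at -0.18 to -0.14, without any of 7 of the 12 libraries. Under etoposide + rapamycin it was higher by 23.9% (adjusted p = 0.00129, edgeR), and this held in all 21. TXN was higher in SK-MEL-28 by 19.9% and TXNRD1 by 11.4% under etoposide + rapamycin (adjusted p = 0.0108 and 0.0181, edgeR), and neither was called under etoposide. The TXN call was lost without A375 with etoposide + rapamycin replicate 3 (log2 0.23) or SK-MEL-28 with etoposide + rapamycin replicate 2 (log2 0.19). That of TXNRD1 was lost, at 0.13 to 0.15, without any of 4 libraries, replicate 1 or 3 of A375 or replicate 2 or 3 of SK-MEL-28 with etoposide + rapamycin.

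**Figure D4:**
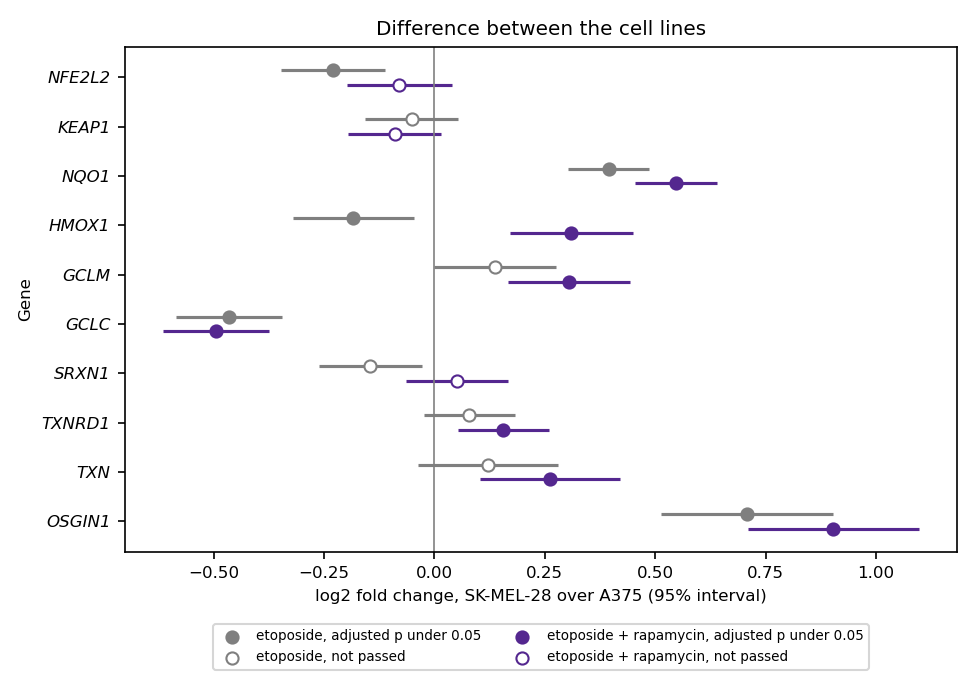
Log2 difference of SK-MEL-28 minus A375 for each of the 10 genes, as points with 95% intervals from the edgeR fit of 12 libraries, under etoposide and under etoposide + rapamycin. OSGIN1 (0.71 and 0.90) and NQO1 (0.39 and 0.55) lie to the right of 0 and GCLC (-0.46 and -0.50) to the left under both treatments, and HMOX1 changes side (-0.18 and 0.31).

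Beyond the 10 genes, 92 other genes of NRF2 biology in 7 lists were counted. In A375, 90 were tested, of which 16 rose and 26 fell with rapamycin, together 46.7% against 28.1% of all genes. In SK-MEL-28, 91 were tested, of which 13 rose and 21 fell, together 37.4% against 19.0%. The listed genes had a median mean count of 1951 in A375 cells and 1906 in SK-MEL-28 cells, above the 389 and 384 of all genes tested. Past a fold of 1.5 were 8 genes in A375 cells and 9 in SK-MEL-28 cells, against 5.89% and 4.99% of all genes. The median log2 change over the list was -0.08 and -0.05. Of the 90 tested in both lines, 24 were called in both, 9 of them higher in both and 15 lower in both, and 0 were called in opposite directions. These 24 were 26.7% of the 90, beside 11.3% of the 18140 genes tested in both lines, where 3.87% of the genes called in both were called in opposite directions.

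Among the 16 partners and regulators of NRF2, 4 rose and 3 fell in A375, and 6 rose and 2 fell in SK-MEL-28. The small MAF genes, whose proteins pair with NRF2 or with its rival BACH1 on the response element, were called higher in both lines. MAFF had 82.33, 88.06 and 80.65 CPM in A375 with etoposide and 150.1, 149.0 and 161.9 CPM with etoposide + rapamycin. Its log2 change was 0.87 ± 0.0526 in A375 cells (SE, adjusted p = 4.38e-07, edgeR) and 0.71 ± 0.0637 in SK-MEL-28 cells (adjusted p = 8.34e-06, edgeR). MAFK rose by 0.59 and 0.30 on the log2 scale, and MAFG by 0.21 and 0.27. BACH1, the repressor of HMOX1, rose by 0.24 in SK-MEL-28 (adjusted p = 0.0258, edgeR), and its log2 change in A375 was 0.11 (interval -0.01 to 0.23). The SK-MEL-28 call was lost without any library other than etoposide replicate 1, with log2 changes of 0.19 to 0.27 and adjusted p up to 0.122 (edgeR). NFE2L3, a relative of NFE2L2, rose by 0.45 in A375 and by 0.72 in SK-MEL-28 on the log2 scale (adjusted p = 1.08e-05 and 6.2e-07, edgeR). CUL3, the scaffold of the ligase that KEAP1 serves, had log2 changes of -0.18 in A375 cells (adjusted p = 0.0213, edgeR) and -0.04 in SK-MEL-28 cells. The A375 value was -0.15 to -0.17, and not called, when replicate 1 of either treatment or replicate 3 with rapamycin was left out.

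SQSTM1 encodes p62, which binds KEAP1 and is itself degraded by autophagy. It had 2472, 2634 and 2487 CPM in A375 with etoposide and 2349, 2293 and 2421 CPM with etoposide + rapamycin, a log2 change of -0.11 that did not pass (adjusted p = 0.0677, edgeR). It was called in 3 alternative settings, with DESeq2 (-0.11), with library totals (-0.15) and without A375 with etoposide replicate 1 (-0.12). In SK-MEL-28 it had 1872, 2028 and 1896 CPM and then 2179, 2510 and 2498 CPM, and rose by 0.31 on the log2 scale (adjusted p = 0.0014, edgeR). The difference between the responses was 0.42 ± 0.0712 (SE, adjusted p = 0.00234, edgeR). Over the 92 genes that test called 7, or 7.69% of the 91 tested, against 5.62% of all genes.

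The 22 genes of glutathione supply and use gave 2 higher and 7 lower among 21 tested in A375, and 2 higher and 5 lower among 22 in SK-MEL-28. SLC7A11, the cystine importer, had a log2 change of -0.19 in A375 cells (adjusted p = 0.0375, edgeR) and 0.03 in SK-MEL-28 cells (interval -0.14 to 0.20). The A375 value was -0.15 to -0.18, and not called, without any of 4 libraries (replicate 1 or 3 of either treatment). GSR, the glutathione reductase, rose by 0.19 in SK-MEL-28 (adjusted p = 0.0139, edgeR), and its log2 change in A375 was -0.17 (interval -0.33 to -0.02, adjusted p = 0.0806, edgeR). The SK-MEL-28 value was 0.18 to 0.19, and not called, when replicate 2 of either treatment or replicate 3 with rapamycin was left out, while the A375 value was called, at -0.23, without etoposide replicate 1. The 12 genes of the thioredoxin and peroxiredoxin system, which do not include the members, gave 1 higher and 3 lower in A375 cells and 3 lower in SK-MEL-28 cells. PRDX1, a peroxiredoxin that thioredoxin recharges, fell by 0.18 on the log2 scale in both lines (adjusted p = 0.0109 and 0.0361, edgeR). It was not called in A375 without replicate 3 of either treatment (-0.15), nor in SK-MEL-28 without any library other than etoposide + rapamycin replicate 2 (-0.20 to -0.12). TXNIP, a protein that binds thioredoxin, rose by 0.48 in A375 (adjusted p = 0.00411, edgeR), and its log2 change in SK-MEL-28 was 0.18 (interval -0.02 to 0.39).

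Among the listed genes called with a fold over 1.5 and a mean of at least 100 counts, AKR1C2 fell the most in each line. AKR1C2 is one of the aldo-keto reductases, which reduce aldehydes and ketones. It had 27.21, 30.55 and 30.68 CPM in A375 with etoposide and 10.61, 12.00 and 10.75 CPM with etoposide + rapamycin, and in SK-MEL-28 16.39, 14.73 and 15.03 CPM and then 5.52, 6.11 and 5.01 CPM. On the log2 scale its change was -1.41 in A375 cells and -1.48 in SK-MEL-28 cells (adjusted p = 7.83e-07 and 2.43e-06, edgeR). AKR1C3 fell by 0.72 in A375 and by 0.54 in SK-MEL-28 on the log2 scale, and AKR1C1 fell by 0.71 and by 0.74 (adjusted p from 0.00036 to 0.018, edgeR), and since the AKR1C genes are near-identical copies, the division of reads among them is uncertain. AKR1B1 fell by 0.63 in A375 and by 0.92 in SK-MEL-28 on the log2 scale (adjusted p = 7.58e-07 and 1.33e-07, edgeR). In that list of 21 genes of aldehyde, quinone and drug detoxification, 4 rose and 8 fell in A375 cells and 4 rose and 5 fell in SK-MEL-28 cells.

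Of the 7 genes of NADPH supply, 4 rose and 2 fell in A375 cells and 1 rose and 2 fell in SK-MEL-28 cells. ME1, the cytosolic malic enzyme, had 84.06, 76.95 and 79.99 CPM in A375 with etoposide and 42.54, 43.68 and 44.29 CPM with etoposide + rapamycin. It fell by 0.89 in A375 cells and by 0.66 in SK-MEL-28 cells on the log2 scale (adjusted p = 3.67e-07 and 9.42e-06, edgeR). Of the 8 tested genes of heme breakdown and iron storage, FTH1, the ferritin heavy chain, was the only one called in either line. It fell by 0.32 in A375 cells and by 0.27 in SK-MEL-28 cells on the log2 scale (adjusted p = 0.000147 and 0.00286, edgeR). FTL, the ferritin light chain, had log2 changes of 0.07 and 0.05 with rapamycin, which did not pass. The 5 genes of superoxide and hydrogen peroxide enzymes gave 1 higher and 2 lower in A375 cells and 3 lower in SK-MEL-28 cells. The ferritin, thioredoxin and peroxiredoxin genes have processed copies elsewhere in the genome, and how reads shared with these were counted is not stated.

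**Figure D5:**
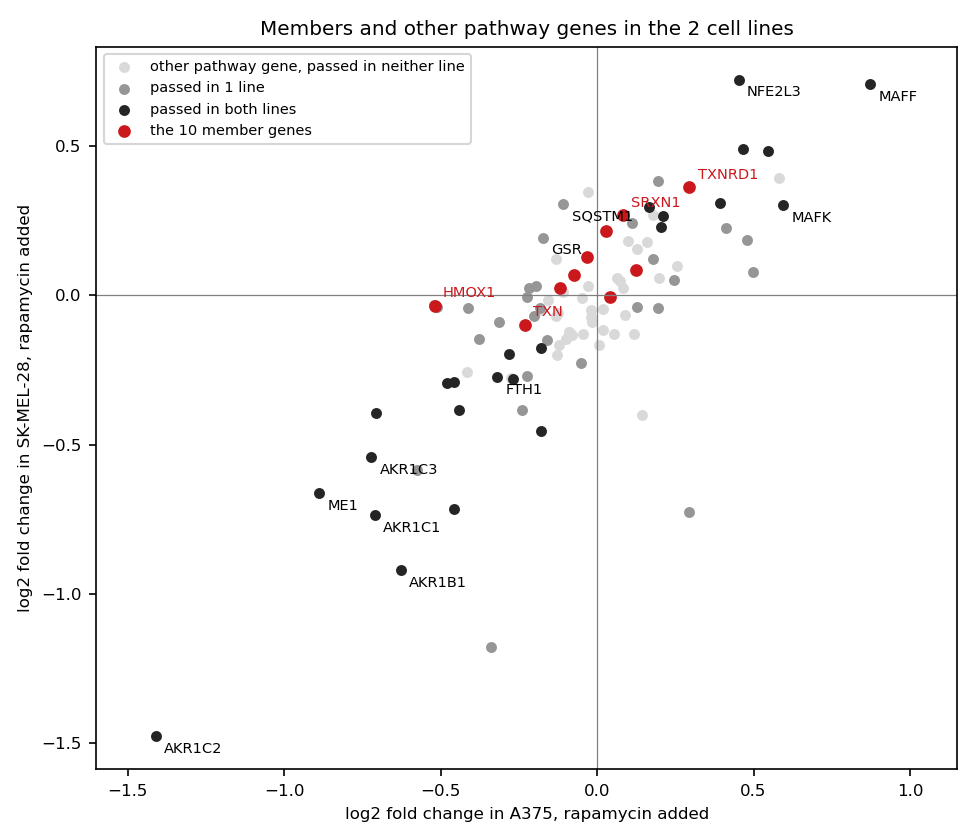
Log2 fold change with rapamycin added in A375 (horizontal axis) against that in SK-MEL-28 (vertical axis) for the 10 members and the other listed genes tested in both lines, with a point for each gene and the named ones labelled. MAFF (0.87 and 0.71) lies at the upper right, AKR1C2 (-1.41 and -1.48) and ME1 (-0.89 and -0.66) at the lower left, and the members lie nearer the centre.

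Between the lines, 40 of the listed genes were higher and 18 lower in SK-MEL-28 under etoposide, together 63.7% of the 91 tested against 31.8% of all genes. Of these, 19 were past a fold of 1.5, as 12.5% of all genes were. The listed genes were counted more deeply, with a median mean count of 1906 against 312 over all genes tested. SOD2, the mitochondrial superoxide dismutase, had a log2 difference of -2.94 (adjusted p = 9.31e-16, edgeR), with 489 to 525 CPM in A375 cells and 62.6 to 70.1 CPM in SK-MEL-28 cells. GPX3, a secreted glutathione peroxidase, had a log2 difference of 1.51 (adjusted p = 7.09e-12, edgeR), and FTL one of 1.10 (adjusted p = 3.8e-11, edgeR). AKR1B1 and AKR1C2 had log2 differences of -1.14 and -0.94. TXNIP (1.14), ME1 (0.65), FTH1 (0.48), SLC7A11 (0.45) and PRDX1 (0.40) were also higher in SK-MEL-28 on the log2 scale, with adjusted p of 0.000266 or less (edgeR).

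Of the 16 partners and regulators of NRF2, 3 were higher and 6 lower in SK-MEL-28 under etoposide, against 15.1% higher and 16.7% lower of all genes. MAFF had a log2 difference of -0.72, MAFG of -0.51, BACH1 of -0.48 and SQSTM1 of -0.40 (adjusted p from 1.3e-07 to 3.15e-05, edgeR). MAFK had one of -0.18 (adjusted p = 0.0363, edgeR), and CUL3 (-0.04) did not pass. The 3 partners and regulators that were higher are not among the genes named here. GSR, of the glutathione list, had a log2 difference of -0.08 that did not pass. Under etoposide + rapamycin 41 of the listed genes were higher and 16 lower, together 62.6% of those tested against 37.8% of all genes. Their median mean count was again 1906, against 312 over all genes tested. SOD2 (-2.98), AKR1B1 (-1.43) and CBR3 (-1.08), a carbonyl reductase, had the largest negative log2 differences among genes with a mean of at least 100 counts. ABCC2 (1.41), a transporter of conjugated drugs, GPX3 (1.26) and FTL (1.09) had the largest positive ones. SQSTM1 then had a log2 difference of 0.03 (adjusted p = 0.718, edgeR), and GSR was higher by 0.30 (adjusted p = 0.00131, edgeR).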

How the data were processed

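RNA of A375 and SK-MEL-28 cells was sequenced from polyA libraries, 3 per group. As the methods and the submitters' notes state, clean reads were mapped to GRCh38 with HISAT 2.2.0, converted with Samtools 1.3.1 and summarised with StringTie 2.1.4 and the Ensembl release 90 annotation. The authors deposited raw counts per gene and library, not normalized, with no pooling. How StringTie coverage became counts is not stated. Of 58312 rows, 5 named no gene (0.000991% to 0.00529% of a library) and were left out.

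Counts were tested with edgeR 4.0.16 in R 4.3.3 (filterByExpr with a minimum count of 10, TMM, glmQLFit, glmQLFTest), with Benjamini-Hochberg adjustment over all genes and calls at an adjusted p under 0.05. The fold of 1.5 is the threshold of the study's methods. Each line was fitted alone for rapamycin. A fit of 12 libraries with a mean per group gave the difference between responses and the lines. The standard error was taken as the size of a log2 change over the root of its F statistic. Log2 CPM used a prior count of 2. Transcript lengths and positions came from GENCODE release 44 (GRCh38), promoter sequences from RefSeq (GRCh38.p14) for 9 of the 10 genes. The fits were tested on simulated data, where the test of the difference between responses missed most small changes (of the size of the fold threshold). Replicate pairs differed by more than sampling noise, so all were counted separately.

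The members, gene lists and tests were chosen with earlier results of these data known. Named were the 10 members, preset genes of the lists (SQSTM1, BACH1, MAFG, MAFF, MAFK, CUL3, SLC7A11, ME1, FTL, FTH1, PRDX1, GSR and TXNIP), and among the lists the 3 largest changes in each direction with a fold over 1.5 and a mean of at least 100 counts. For NFE2L2, HMOX1 and NQO1 the 3 genes nearest in log2 CPM were also named. The values of some genes are not reported here, and counts over the lists include them. Alternatives were DESeq2 1.42.0, RLE normalization, library totals, looser and stricter filters (at least 1 count in any library, or 10 in every one), a replicate block, halved counts, summed rows of a symbol, one fit of all libraries or of the 6 compared, a fold threshold, and fits that each left out 1 library.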

Additional observations from a re-analysis of the deposited data

Results flagged for a closer look

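For 3 of the genes named, A375 and SK-MEL-28 responded differently to rapamycin in the edgeR test of the difference itself over all 12 libraries. HMOX1 had log2 changes of -0.52 (A375) and -0.03 (SK-MEL-28), a difference of 0.49 on the log2 scale. SQSTM1 had a difference of 0.42, from log2 changes of -0.11 (not called) and 0.31. GSR had a difference of 0.38, with log2 changes of -0.17 and 0.19. The HMOX1 and SQSTM1 differences were called in all 20 alternative settings. That of GSR was called in 13 of 20, with a difference of 0.31 to 0.38 where the call was lost, and its adjusted p rose to 0.0709 (edgeR) without A375 with etoposide + rapamycin replicate 3, where the difference was 0.33.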

How the results depend on the processing

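With a fold over 1.5 added to the call, 0 members were called with rapamycin in A375, 0 in SK-MEL-28 and 0 for the difference between the responses, 1 member (OSGIN1) between the lines under each treatment, and 8, 9, 0 and 19 of the other listed genes in A375, in SK-MEL-28, for the difference and between the lines under etoposide. Scaling by library totals called 5 members in A375, adding NFE2L2 (-0.16) and NQO1 (-0.12), and moved the share of higher calls over all genes from 50.8% to 39.7% in A375 and from 46.6% to 36.1% in SK-MEL-28, with medians of -0.05 and -0.03. For the difference between responses, the listed genes called were 14 with DESeq2, 4 with the filter of 1 count in any library, 13 with the filter of 10 counts in every library and 4 with the replicate block. The share of all genes called was 13.1%, 1.53%, 8.63% and 3.08% in these settings, against 5.62% in the main fit. With DESeq2 it was taken over the genes given an adjusted p. Same-numbered replicates did not deviate together (correlations of -0.108 to 0.116), and the replicate block took the calls for the difference over all genes from 1130 to 620 and called OSGIN1 in SK-MEL-28 (0.21, adjusted p = 0.0345, edgeR). Leaving out 1 library gave 2 to 3 members called in A375, 2 to 3 in SK-MEL-28, 1 to 2 for the difference, 4 to 6 between the lines under etoposide and 5 to 7 under etoposide + rapamycin. The listed genes called were then 31 to 45, 23 to 34, 4 to 9 and 51 to 60 in the same order without the last. Over all genes the share called was 20.1% to 27.1% in A375 and 12.5% to 15.9% in SK-MEL-28. It was 2.85% to 6.31% for the difference, 26.6% to 30.5% between the lines under etoposide and 30.8% to 37% under etoposide + rapamycin. Small log2 changes that were not called changed sign in some settings. With library totals KEAP1 (-0.00327) and OSGIN1 (-0.0163) did so in A375, and NFE2L2 (-0.0106) and SLC7A11 (-0.00361) in SK-MEL-28. The difference for PRDX1 was -0.0026 with DESeq2, -0.00255 with RLE normalization and -0.00776 with the filter of 10 counts in every library. Leaving out 1 library, the A375 changes spanned 0 for GCLM (-0.0851 to 0.0302) and OSGIN1 (-0.0224 to 0.0828). Those of SK-MEL-28 spanned 0 for NFE2L2 (-0.00588 to 0.0546), KEAP1 (-0.0392 to 0.0465), HMOX1 (-0.071 to 0.015), CUL3 (-0.0653 to 6.25e-05), SLC7A11 (-0.0233 to 0.127) and FTL (-0.00443 to 0.113). The differences did for KEAP1 (-0.0733 to 0.0117), GCLC (-0.0803 to 0.0307), PRDX1 (-0.0334 to 0.0604) and FTL (-0.0723 to 0.0439). The cause of these shifts was not tested.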

Other observations

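The genes whose log2 CPM followed that of a member most closely over the 12 libraries were found by root mean square distance after centring, among 12712 genes with a mean of at least 100 counts. For NFE2L2 these were ZNF644 (0.042), C6orf62 (0.046) and ANXA7 (0.048), where the median gene lay at 0.21. For HMOX1 they were MMADHC (0.068), HSD17B12 (0.070) and ELOC (0.073), with a median of 0.27, and their log2 changes with rapamycin in A375 were -0.42, -0.42 and -0.37. For NQO1 they were PDCD4 (0.046), LDHB (0.058) and RFX5 (0.058), with a median of 0.29. A gene of constant level would lie at 0.10 from NFE2L2, 0.19 from HMOX1 and 0.24 from NQO1. These distances describe the 12 libraries, which share treatments and lines, and were not tested.

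Of the other cell type markers, 2 of 4 keratinocyte genes exceeded 1 CPM in every group, with sums of 48.1 to 72.3 CPM over the 12 libraries. The 4 fibroblast markers summed to 15.8 to 20.6 CPM in A375 with etoposide and 12.1 to 13.2 CPM with etoposide + rapamycin, and to 30.2 to 36.9 and 20.6 to 23.5 CPM in SK-MEL-28. The 3 endothelial markers summed to 3.49 to 9.35 CPM. The part of these markers in the members' results was not tested.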
